A study of Homo sapiens with 4 samples.

Results

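Of the 20176 protein-coding genes in the GENCODE annotation of GRCh37, 246 lie on chromosome 19 and carry a symbol of ZNF followed by digits and an optional letter. These ZNF genes were examined for reduced H3K4me3 after Tat-SID, and were set beside the 262 ZNF genes of other chromosomes and the 1234 other protein-coding genes of chromosome 19. H3K4me3 was profiled by native ChIP-Seq in MDA-MB-231, a human triple-negative breast cancer line, in cells that received no peptide, 1 μM Tat-SID or 2.5 μM Tat-SID, with 1 library for each and 1 further library of input DNA. Tat-SID is a decoy peptide that joins the SIN3 interaction domain of the repressor MAD to the nuclear localization signal of Tat, and it competes for the PAH2 domain of the co-repressor scaffold SIN3. The deposited files used here list the regions that the authors called as reduced at each dose and as increased at 2.5 μM, each time relative to the single untreated library, with positions and no measured value. The size of a change could therefore not be estimated at any gene, no test between conditions was possible, and read depth is unknown from the lists. The labelled cell line could not be checked against marker genes, because the files hold no expression values. A scrambled peptide was not among the ChIP-Seq samples.

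C2H2 zinc finger proteins bind DNA through tandem fingers, each of which contacts a few bases. The large family on chromosome 19 arose by repeated tandem duplication, so its members lie side by side in clusters, and most carry a KRAB domain that recruits the co-repressor TRIM28 and, through it, the histone methyltransferase SETDB1. KRAB zinc finger proteins are best known for silencing transposable elements. H3K4me3 marks the start sites of transcribed genes and is densest at promoters rich in CpG dinucleotides.

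A gene was scored as reduced when a listed region came within 3 kb of its transcription start site (TSS), for which the outermost annotated 5′ base of the gene was used. At 2.5 μM, 10 of the 246 chromosome 19 ZNF genes were reduced, which was 4.07%, while 9.50% of all protein-coding genes were. The reduced genes were ZNF699, ZNF266, ZNF561, ZNF564, ZNF792, ZNF345, ZNF790, ZNF45, ZNF225 and ZNF175. At 1 μM, 0 of the 246 were reduced, against 0.496% of all protein-coding genes. For the count of 0, the exact 95% interval reaches 1.49%, and the limit set by 3 counts of the total is 1.22%. None of the 141 regions reduced at 1 μM lay on chromosome 19, and none of the 3 regions increased at 2.5 μM did.

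The sequences before the start sites of 4 reduced genes and 1 unreduced neighbour are shown because they hold short elements counted further on and the longest run of bases that any pair of reduced promoters shared. Each is the 200 bases immediately upstream of the TSS in GRCh37, read 5′ to 3′ on the strand of the gene. ZNF266 (chr19:9546250-9546449, minus strand) and ZNF561 (chr19:9731913-9732112, minus strand) were reduced at 2.5 μM. ZNF121 (chr19:9695181-9695380, minus strand) lies between them and was not. Capitals mark a run of 15 bases found in all 3, which ends 9, 11 and 42 bases before the TSS of ZNF266, ZNF561 and ZNF121.
ZNF266: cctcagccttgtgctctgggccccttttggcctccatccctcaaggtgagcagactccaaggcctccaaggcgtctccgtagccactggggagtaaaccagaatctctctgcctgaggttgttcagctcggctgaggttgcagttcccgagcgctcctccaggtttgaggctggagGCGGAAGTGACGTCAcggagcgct
ZNF561: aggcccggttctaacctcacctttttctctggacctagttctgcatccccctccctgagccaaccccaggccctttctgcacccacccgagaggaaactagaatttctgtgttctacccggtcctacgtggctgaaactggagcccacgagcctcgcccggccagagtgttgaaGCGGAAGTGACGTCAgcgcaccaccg
ZNF121: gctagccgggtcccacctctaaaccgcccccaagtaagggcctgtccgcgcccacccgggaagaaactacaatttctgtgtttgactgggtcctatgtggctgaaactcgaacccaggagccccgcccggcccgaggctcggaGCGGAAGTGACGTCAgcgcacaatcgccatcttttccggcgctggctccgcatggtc
ZNF792 (chr19:35455134-35455333, minus strand) had the highest GC content of the reduced genes within 1 kb of the TSS. Capitals mark GGGCGG, the core of the GC box bound by SP1 and related factors.
ZNF792: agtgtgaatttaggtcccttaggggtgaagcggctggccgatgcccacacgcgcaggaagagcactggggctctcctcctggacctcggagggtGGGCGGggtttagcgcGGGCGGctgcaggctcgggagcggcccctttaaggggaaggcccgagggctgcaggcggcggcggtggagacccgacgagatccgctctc
ZNF175 (chr19:52074336-52074535, plus strand) was the only reduced gene with CCGGAAG, a core of the sites bound by ETS factors, and capitals mark it.
ZNF175: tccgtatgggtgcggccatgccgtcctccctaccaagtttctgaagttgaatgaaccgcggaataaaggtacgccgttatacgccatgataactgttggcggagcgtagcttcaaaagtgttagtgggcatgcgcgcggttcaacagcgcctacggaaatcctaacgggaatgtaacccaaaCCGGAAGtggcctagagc

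In the first cluster of genes on the short arm with reduced members, 3 of 13 ZNF genes were reduced. ZNF699, a homolog of the Drosophila ethanol tolerance gene hangover, has its TSS at position 9420514 on the minus strand. Its reduced region, chr19:9416651-9421199, spanned 4549 bp, of which 685 bp lay upstream of the TSS and 3863 bp ran into the gene over exon 1. ZNF266 starts at 9546249 on the minus strand, and its region of 3499 bp (chr19:9544551-9548049) reached 1800 bp upstream and 1698 bp into the gene, over exons 1 to 4. It also held the start of an unnamed noncoding RNA gene. ZNF561 starts at 9731912 on the minus strand, and its region (chr19:9730201-9733699) was also 3499 bp long, with 1787 bp upstream and 1711 bp downstream. That region covered exon 1 and part of exon 2, and held the start of the antisense RNA gene ZNF561-AS1. The regions of ZNF266 and ZNF561 were thus close to symmetric about the TSS, whereas that of ZNF699 lay mostly within the gene.

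ZNF564 was the fourth reduced gene of the short arm and the only one of 25 ZNF genes in its cluster. Its TSS lies at 12662356 on the minus strand, and the region chr19:12659901-12664549 was 4649 bp long, the longest at any chromosome 19 ZNF gene. It covered 2193 bp upstream and 2455 bp downstream of the TSS, including exon 1, and held the starts of an unnamed protein-coding readthrough gene and of LINC02926. The signal of overlapping transcription units cannot be told apart in such a region.

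On the long arm, ZNF792 had the region that reached furthest into a gene. Its TSS lies at 35455133 on the minus strand, and the region chr19:35450901-35455449 ran 316 bp upstream and 4232 bp downstream, over exons 1 to 3 and 53.7% of the gene, which is 7876 bp long. ZNF345 (TSS 37341263, plus strand) and ZNF790 (TSS 37341689, minus strand) start 426 bp apart on opposite strands and shared the region chr19:37339301-37342949 of 3649 bp, so that they count as 2 genes and 1 region. The region covered exons 1 and 2 of ZNF345, and also held the start of a further, unnamed protein-coding gene. ZNF790 has 8 annotated transcripts, of which 4 start in the region, and its canonical transcript starts 10.0 kb from it.

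ZNF45 and ZNF225 belong to the cluster at 44.0 to 45.0 Mb. ZNF45 (TSS 44439434, minus strand) had the shortest region, chr19:44437501-44440449, with 2949 bp, of which 1015 bp lay upstream and 1933 bp downstream over exons 1 and 2. ZNF225 (TSS 44616334, plus strand) had a region of 3349 bp, chr19:44615801-44619149, which covered 533 bp upstream, 2815 bp downstream with exon 1, and the start of the antisense gene ZNF225-AS1. ZNF175, a repressor of transcription from the HIV-1 long terminal repeat, starts at 52074536 on the plus strand. Its region, chr19:52073751-52077449, was 3699 bp long, with 785 bp upstream and 2913 bp downstream over exons 1 and 2, and was the last reduced region on the chromosome. The region also held the start of an unnamed noncoding RNA gene.

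**Figure D1:**
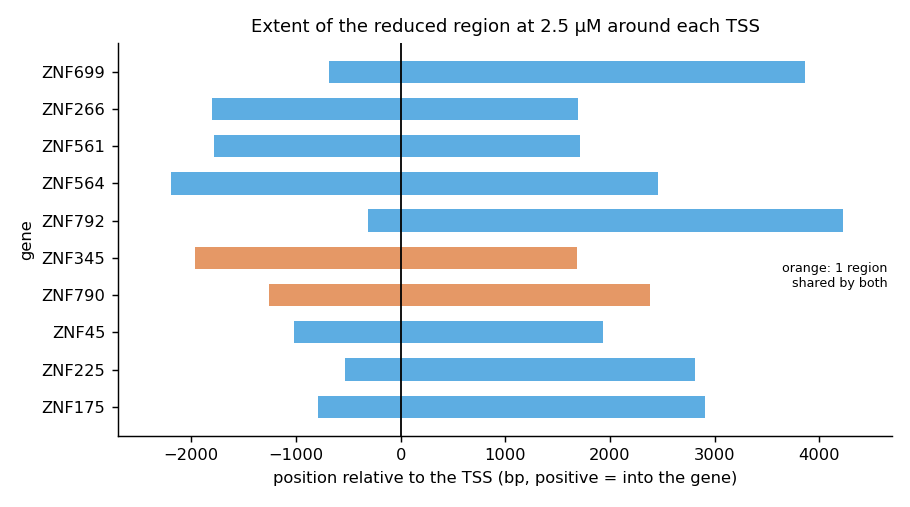
Extent of the reduced region at 2.5 μM around the TSS of each of the 10 reduced ZNF genes of chromosome 19, in bp, with positive positions inside the gene. Each bar is 1 region, and the orange bars are the 1 region shared by ZNF345 and ZNF790; upstream reach runs from 316 bp at ZNF792 to 2193 bp at ZNF564.

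All 10 TSS lay inside a region, so their distance was 0 bp, and no other ZNF gene start of the chromosome was within 10 kb of a reduced region. The nearest outside were ZNF559 at 13.2 kb, ZNF221 at 14.9 kb, ZNF224 at 17.3 kb, ZNF846 at 22.6 kb and ZNF234 at 26.6 kb. ZNF224 encodes a KRAB protein that represses the aldolase A gene. Over the 236 unreduced genes the median distance was 1144 kb, with quartiles of 364 and 4744 kb and a maximum of 6908 kb. Of these, 12 lay within 50 kb of a region and 120 lay more than 1000 kb from any.

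ZNF846 shows how far the gene start decides the score. Its gene start lies outside, but its canonical transcript starts at 9879414, inside the region chr19:9877751-9881299 of 3549 bp, and 5 of its 12 transcripts start there. With the start of every annotated transcript in use, ZNF846 joined the reduced genes and the count became 11 of 246, or 4.47%. With the canonical transcript alone, ZNF846 entered and ZNF790 left, which gave 10 of 243 genes, or 4.12%.

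**Figure D2:**
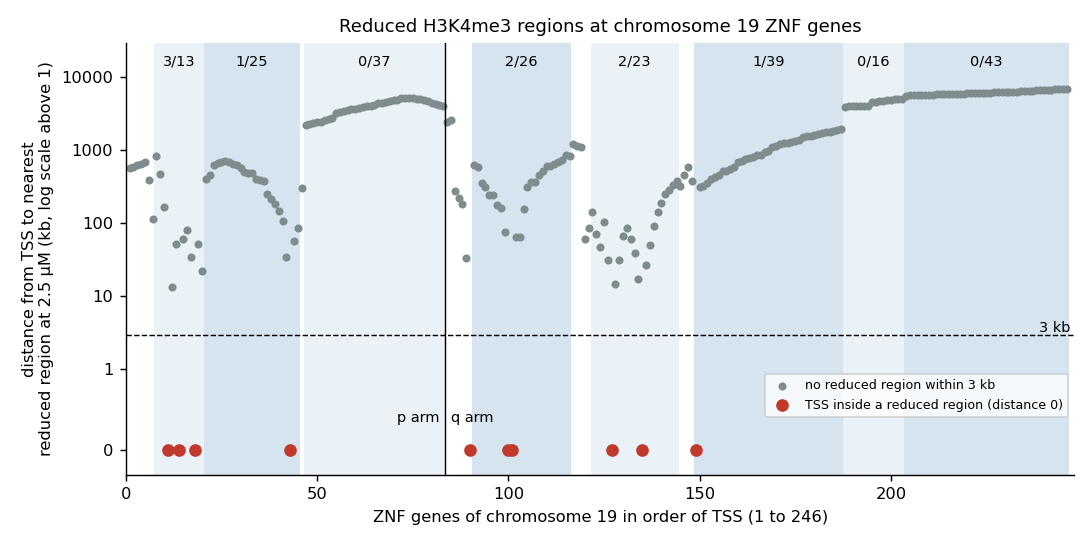
Distance in kb (log scale above 1 kb) from the TSS of each of the 246 ZNF genes of chromosome 19, in order along the chromosome, to the nearest region reduced at 2.5 μM. Red points are the 10 genes whose TSS lies in a region, the dashed line is 3 kb, shading marks clusters of at least 10 genes with their counts of reduced genes, and the vertical line parts the arms; the genes of the last 2 shaded clusters have no region near them.

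ZNF genes whose starts were at most 500 kb apart formed 21 clusters, and 6 of these held the 10 reduced genes. The cluster between 8.58 and 9.90 Mb held 3 of 13 (ZNF699, ZNF266 and ZNF561), which was 23.1%, and 0 of the 15 other protein-coding genes within it were reduced. The cluster between 11.6 and 12.8 Mb held 1 of 25, that between 35.2 and 35.5 Mb 1 of 5, that between 36.7 and 38.3 Mb 2 of 26, that between 44.0 and 45.0 Mb 2 of 23 and that between 52.1 and 54.0 Mb 1 of 39. Other protein-coding genes were also scored as reduced in the clusters that start at 11.6 Mb (1 of 13), 36.7 Mb (1 of 6) and 44.0 Mb (1 of 14). At 11.6 Mb this gene shared the region of ZNF564, and at 36.7 Mb it shared the region of ZNF345 and ZNF790. Neither of these clusters held any further listed region, so there the other gene was not a separate call. In the cluster that starts at 52.1 Mb, 0 of 15 others were, and that at 35.2 Mb held no others. Of the 8 clusters with at least 10 genes, which together hold 222 genes, 3 had no reduced gene and contain 96. These were the cluster beside the centromere between 19.8 and 24.2 Mb, with 37 genes, and the clusters of 16 genes between 56.0 and 57.2 Mb and of 43 genes between 57.7 and 59.0 Mb.

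By arm, 4 of 83 ZNF genes of the short arm (4.82%, exact 95% interval 1.33 to 11.9%) and 6 of 163 of the long arm (3.68%, 1.36 to 7.84%) were reduced. The intervals overlap widely. They cover counting error over genes only, and genes of a cluster that share sequence or a region are not independent counts. From 52077450 to the end of the chromosome, a stretch of 7.05 Mb, no reduced region was listed near any of 97 ZNF genes or 147 other protein-coding genes. A stretch of 10.8 Mb around the centromere held 37 ZNF genes and 80 others and also had no listed region. In both stretches the absence thus held for other genes as well as for ZNF genes.

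Next to each reduced gene, the nearest ZNF genes on either side were mostly unreduced. ZNF345 and ZNF790 were the only reduced genes adjacent to each other. The other neighbours came to 18 distinct unreduced genes, whose starts lay 13.9 to 1546 kb from that of the reduced gene, with a median of 56.6 kb, and 6 of these 18 had a CpG promoter. ZNF121 and ZNF562, for example, flank ZNF561 at 36.7 and 53.9 kb, and the nearest region lay 35.0 and 52.1 kb from their starts. A gene missing from the list was not shown to be unchanged. It only did not hold a region past the threshold of the authors, and the level of the mark in untreated cells, without which no loss can be called, is not part of the lists.

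The share of reduced genes was then compared between groups of genes, to ask whether chromosome 19 ZNF genes differed from other ZNF genes or from their chromosome. At 2.5 μM the exact 95% interval for the chromosome 19 ZNF genes was 1.97 to 7.35%. For ZNF genes of other chromosomes 15 of 262 were reduced, or 5.73% (3.24 to 9.27%), and for other genes of chromosome 19 the count was 30 of 1234, or 2.43% (1.65 to 3.45%). The interval of the chromosome 19 ZNF genes overlapped both. It lay below that of all protein-coding genes, at 1917 of 20176 (9.10 to 9.91%), and so did that of the other genes of chromosome 19. These are shares of genes in 1 pair of libraries, and no difference between groups was tested. The 10 ZNF genes lay at 9 regions and the 30 other genes of the chromosome at 17. Some of these other genes started in the regions of ZNF564 and of ZNF345 and ZNF790. Genes that share a region are not independent counts, which the intervals do not take into account. At 1 μM the counts were 0 of 262 ZNF genes elsewhere and 0 of 1234 other genes of chromosome 19.

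**Figure D3:**
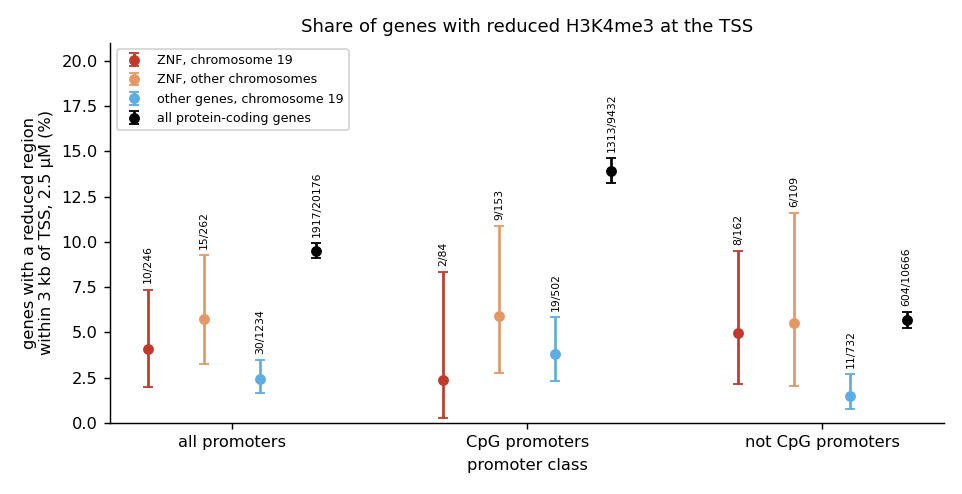
Percentage of genes scored as reduced at 2.5 μM among ZNF genes of chromosome 19 (red), ZNF genes of other chromosomes (orange), other genes of chromosome 19 (blue) and all protein-coding genes (black), by promoter class. Points are shares, bars are exact 95% intervals for counting error over genes, and the labels give reduced genes over all genes; in CpG promoters the share is 2.38% for the chromosome 19 ZNF genes and 13.9% for all genes.

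Promoter composition differed between these groups. A promoter was classed as a CpG promoter when the sequence within 1 kb of the TSS had a GC content over 50% and an observed to expected CpG ratio over 0.6. Of the chromosome 19 ZNF genes, 84 of 246 (34.1%) met this, against 58.4% of ZNF genes elsewhere, 40.7% of other genes on the chromosome and 46.9% of all genes. Their median GC content was 52.1% and their median ratio 0.586, beside 54.3% and 0.666 for ZNF genes elsewhere and 58.2% and 0.546 for the other genes of the chromosome. The chromosome 19 ZNF genes thus had the lowest median GC content of the 3 groups and the smallest share of CpG promoters.

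Within CpG promoters, 2 of 84 chromosome 19 ZNF genes were reduced (2.38%, 0.290 to 8.34%), namely ZNF699 and ZNF564. The corresponding counts were 9 of 153 for ZNF genes elsewhere (5.88%, 2.72 to 10.9%), 19 of 502 for other genes of chromosome 19 (3.78%, 2.29 to 5.85%) and 1313 of 9432 for all genes (13.9%, 13.2 to 14.6%). Outside CpG promoters 8 of 162 chromosome 19 ZNF genes were reduced (4.94%, 2.16 to 9.50%), against 604 of 10666 of all genes (5.66%, 5.23 to 6.12%) and 11 of 732 of the other chromosome 19 genes (1.50%, 0.752 to 2.67%). In all genes the share was higher in CpG promoters than outside them. In the chromosome 19 ZNF genes the values lay in the other order, with overlapping intervals. For ZNF genes elsewhere the count outside CpG promoters was 6 of 109 (2.05 to 11.6%). This interval overlapped that for their CpG promoters and that of the chromosome 19 ZNF genes outside CpG promoters. Neither ZNF group thus showed a clearly higher share in CpG promoters, but with so few reduced genes this does not show that it was absent. The intervals of the other chromosome 19 genes also overlapped, although their share was higher in CpG promoters. The 2 reduced chromosome 19 ZNF genes with CpG promoters were both near the limits. A stricter definition, with GC over 55% and a ratio over 0.65, kept 32 ZNF genes of the chromosome and 0 reduced ones.

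Among the 10 reduced genes, GC content within 1 kb ran from 42.2% at ZNF225 through 43.9% at ZNF175 and 46.2% at ZNF45 to 58.5% at ZNF792. The unreduced genes ran from 35.0 to 68.1%. The CpG ratio of the reduced genes ran from 0.461 at ZNF561 to 0.687 at ZNF266, and that of the unreduced genes from 0.115 to 0.906. The medians were close, at 51.6 and 52.2% for GC content and 0.582 and 0.587 for the ratio. The reduced genes lay inside the range of the unreduced ones on both measures.

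**Figure D4:**
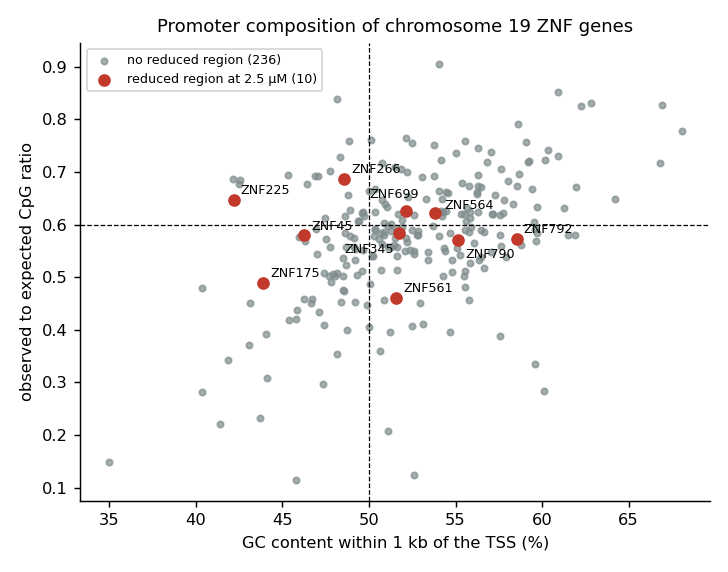
GC content (%) and observed to expected CpG ratio within 1 kb of the TSS for the 246 ZNF genes of chromosome 19, with 1 point a gene. Red points are the 10 genes reduced at 2.5 μM, grey points the 236 others, and dashed lines the limits of the CpG promoter class at 50% and 0.6; only ZNF699 and ZNF564 of the red points lie above both limits.

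Duplicated genes can share reads, and the aligner kept reads with several positions up to a limit and reported 1 of them. The share of 100-base sequences within 1 kb of the TSS that occur more than once in the genome was therefore computed. Only exact matches were counted, although the aligner allowed mismatches, and the reduced regions reached beyond 1 kb. A share of 0 therefore does not mean that no reads could be shared. It was 0 at 203 of the 246 genes and at most 15.7%. Of the reduced genes, 9 were at 0 and ZNF792 was at 0.789%. Of the 5 nearest unreduced genes, ZNF221 was at 10.4% and the others were at 0. Any part of shared sequence in the calls was not tested.

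The regions at chromosome 19 ZNF genes were short. The 9 regions that held the 10 TSS made up 29.0% of the 31 reduced regions of the chromosome. Their lengths ran from 2949 to 4649 bp around a median of 3649 bp, and all 9 were shorter than the median of 4949 bp over all 2063 regions reduced at 2.5 μM. The other 22 regions of chromosome 19 ran from 3549 to 9749 bp around a median of 5849 bp, and 7 of them were shorter than 4949 bp. Regions at the 15 reduced ZNF genes elsewhere ran from 2499 bp at ZNF484 to 9899 bp at ZNF608, with a median of 5299 bp, and 6 were shorter than 4949 bp. Of the 9 shortest regions of chromosome 19, 6 held the TSS of a ZNF gene, and the shortest of the 22 others, at 3549 bp, was the one that holds the canonical start of ZNF846. The width of the mark in untreated cells is not part of the lists.

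**Figure D5:**
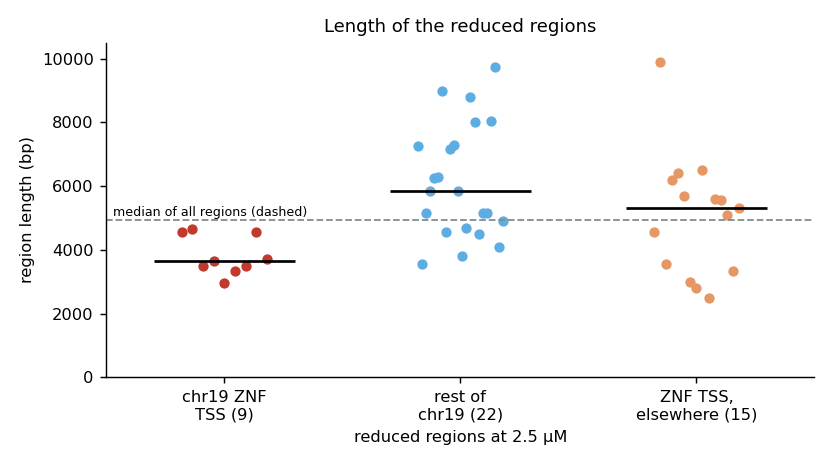
Length in bp of the regions reduced at 2.5 μM at ZNF genes of chromosome 19 (red, 9 regions), on the rest of chromosome 19 (blue, 22) and at ZNF genes of other chromosomes (orange, 15). Each point is 1 region, solid lines are group medians of 3649, 5849 and 5299 bp and the dashed line is the median of all regions, 4949 bp; all red points lie below the dashed line, and horizontal spread within a group has no meaning.

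Around the TSS, the regions at the 10 genes reached a median of 1138 bp upstream and 2422 bp downstream, and 7 of the 10 reached further into the gene than away from it. At the ZNF genes elsewhere the medians were 1765 and 3194 bp, with 14 of 15 reaching further downstream. At other chromosome 19 genes whose TSS lay in a region they were 2261 and 2748 bp, with 16 of 29, and over all genes they were 1744 and 3200 bp, with 77.4%. A region often held more than 1 gene start. This was so for 6 of the 9 regions at chromosome 19 ZNF genes (66.7%), when starts of noncoding genes are counted, and for 873 of 1462 regions at any protein-coding gene (59.7%).

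The encoded proteins were described from the reference sequence by sequence patterns. Such patterns can miss true fingers or KRAB domains, so a protein without a match may still carry them. Of the 242 chromosome 19 ZNF genes with a translated canonical transcript, 190 (78.5%) matched a pattern for the KRAB A box, whereas 85 of 257 (33.1%) did among the ZNF genes elsewhere. The reduced genes matched in 9 of 10 cases, all but ZNF345, and the unreduced genes in 181 of 232 (78.0%). Expressed the other way, 9 of 190 genes with the pattern were reduced (4.74%, 2.19 to 8.80%) and 1 of 52 without it (1.92%, 0.0487 to 10.3%), and these intervals overlap. Matches to a C2H2 finger pattern ran from 8 in ZNF561 to 17 in ZNF225 in the reduced genes, with a median of 13.5. In the unreduced ones they ran from 1 to 36 with a median of 12. The reduced genes thus covered the middle of the range of the family.

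The 15 reduced ZNF genes of other chromosomes lay on 10 chromosomes. They were ZNF608, ZNF131, ZNF804A, ZNF281, ZNF277, ZNF706, ZNF654, ZNF143, ZNF207, ZNF639, ZNF512, ZNF326, ZNF596, ZNF33A and ZNF484. Their median number of matches to the finger pattern was 3, beside 9 for all ZNF genes elsewhere. Fingers with another spacing of the cysteines go uncounted, so these values need not be the full number of fingers. Of the 15, 2 matched the KRAB pattern, ZNF33A and ZNF484, beside 33.1% of that group. On chromosome 19 the reduced genes had a median of 13.5 finger matches beside 12 for all ZNF genes there. There, 9 of 10 matched the KRAB pattern beside 78.5%, so the groups as a whole already differed. Among the 15 genes of other chromosomes, ZNF143 is an activator of small nuclear RNA genes and ZNF207 takes part in chromosome alignment in mitosis. ZNF281, also of the 15, is a transcription factor linked to pluripotency and to epithelial-to-mesenchymal transition. The regions at ZNF33A (2799 bp) and ZNF484 (2499 bp) were the shortest of the 15.

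Short sequence elements were counted on both strands from 250 bases before to 50 bases after each TSS. CCGGAAG occurred in 101 of the 246 chromosome 19 ZNF promoters (41.1%), in 11.8% of all promoters and in 1 of the 10 reduced genes, ZNF175. GGGCGG occurred in 60.6%, 52.2% and 6 of 10. CCAAT, the box bound by NF-Y, occurred in 52.8%, 35.8% and 4 of 10. CACGTG, the E-box bound by MYC and MAD with MAX, occurred in 9 of the 246 (3.66%), in 8.33% of all promoters and in 0 of the 10. TATAAA occurred in 7.32%, 10.9% and 0 of 10. A match describes the letters of this window and not binding, and its absence from a window says nothing of a factor.

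TGACGTCA, the full element bound by CREB and ATF factors, occurred in 7 of the 246 (2.85%) and in 2.29% of all promoters, and 2 of the 10 reduced genes held it, ZNF266 and ZNF561. In both it is part of the run of 15 bases shown above. This run occurred in 6 of 20098 promoters of the genome. Besides ZNF266 and ZNF561 these were ZNF121 and ZNF562 of the same cluster, MAGOH on chromosome 1, which encodes a core protein of the exon junction complex, and NAT14 elsewhere on chromosome 19. ZNF266 and ZNF561 were reduced and the other 4 were not. Of the 4 members of the cluster that held the run, 2 were thus reduced and 2 were not.

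The co-repressor partners of KRAB proteins were scored in the same way, although most lie on other chromosomes. Of 17 genes, 5 were reduced at 2.5 μM, where 9.50% of all protein-coding genes and 13.9% of those with CpG promoters were: TASOR, SMARCAD1, CBX3, ATF7IP and CBX5. TASOR belongs to the HUSH silencing complex, SMARCAD1 is a chromatin remodeler that binds TRIM28, CBX3 and CBX5 encode HP1 proteins that bind methylated H3K9, and ATF7IP is a partner of SETDB1. CBX3 and ATF7IP were also reduced at 1 μM, where the share of all genes was 0.496%. The list was not tested against other genes. TRIM28 itself, which lies near the end of chromosome 19, was 6978 kb from its nearest region. SETDB1, on chromosome 1, was 228 kb from the region nearest to it. Over the 17 genes the median distance was 228 kb, against 874 kb for the chromosome 19 ZNF genes, 545 kb for the other genes of that chromosome and 405 kb for all protein-coding genes.

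Of the SIN3 scaffold and its partners, 2 of 8 genes were reduced at 2.5 μM, SIN3A and the H3K4 demethylase gene KDM5A. The shares were 9.50% for all protein-coding genes and 13.9% for those with CpG promoters. PHF12, which encodes PF1, and KDM5B, MORF4L1, EMSY, MXD1 and SIN3B were not reduced. A count of 2 among 8 genes is too small to read as a result about them. SIN3B, the one gene of this list on chromosome 19, lay 167 kb from a region. C2H2 genes of chromosome 19 with symbols other than ZNF were also examined, and 14 of 15 listed symbols were found in the annotation. None of the 14, among them the imprinted gene PEG3, was reduced at 2.5 μM, where 2.43% of the other chromosome 19 genes were, or at 1 μM. A count of 0 among so few genes is no result about them, and their median distance from a region was 5275 kb. With them added to the ZNF genes, 10 of 260 genes were reduced, or 3.85%.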

How the data were processed

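The authors made 4 libraries from MDA-MB-231 cells, 3 of native H3K4me3 ChIP and 1 of input DNA. Per the submitters' processing notes and the methods, reads were checked with FastQC (version 0.10.0), aligned to hg19 (GRCh37) with Bowtie (version 1.0.0), and compared between each treated library and the untreated one with the differential form of SICER, at a window of 50 bp and a gap of 400 bp. MACS2 (version 2.1.0) was used for signal tracks, not analysed here. The handling of duplicate reads is not given in the sources used here. The lists carry a stricter FDR than the methods text names. The 3 deposited lists hold the start and end of each region in bp and no other unit. They have 0 columns of other samples. Each condition is 1 library, and nothing was averaged.

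Positions were read as BED intervals and printed from 1. GENCODE release 44, lifted to GRCh37, gave genes and transcripts, and printed sequences from the GRCh37 genome. Distances were checked with bedtools (version 2.31.1), and the scoring was tested on simulated regions. Shares carry exact Clopper-Pearson 95% intervals. Fingers were counted by the pattern CX2CX12HX3-5H, which fixes the spacing of the cysteines and does not count fingers with another spacing. The KRAB pattern was widened after its first form missed known KRAB proteins, and the widened form can still miss some. Named genes were every reduced member, the 5 nearest beyond 3 kb, and 3 lists: KRAB co-repressors, the SIN3 complex and other C2H2 symbols of chromosome 19. Other genes were named after their values were seen, as the 15 ZNF genes elsewhere and the holders of the shared run were. The members, lists and comparisons were chosen with earlier results of these data known, and the TGACGTCA element and the shared run after the sequences were seen. Python 3.11.15, pandas 2.3.3, numpy 2.4.6, scipy 1.17.1, pysam 0.24.0 and matplotlib 3.10.9 were used.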

Additional observations from a re-analysis of the deposited data

How the results depend on the processing

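The share of chromosome 19 ZNF genes with a reduced region at 2.5 μM ran from 3.85 to 4.47% over 9 alternatives: other distances to the TSS, all transcripts or the canonical transcript, a minimum region length, merging of regions, curated RefSeq genes and the addition of other C2H2 symbols. The canonical transcript was added after the data were seen. Some alternatives could not change this count. The curated RefSeq setting restricted symbols only and kept all 246 genes, and the minimum length of 1000 bp was below the shortest member region, 2949 bp. At 1 μM the share was 0 in all 9, which was fixed because no region lay on the chromosome. The share ran from 5.73 to 6.87% for ZNF genes elsewhere and from 2.35 to 2.67% for other chromosome 19 genes, over 8 alternatives each. Among CpG promoters it ran from 0 to 3.57%, with 0 (0 of 32 genes) for the stricter definition in place of 2.38% (2 of 84), since fewer genes, and neither reduced one, passed it. A gap of 250 kb or 1 Mb gave 29 or 16 clusters in place of 21. No paired analysis was possible because there was 1 library per condition, so no replicate could be left out either. Depth per library is unknown from the lists, and with 1 library per condition the spread between cultures was not measured.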
